A study of Mus musculus with 4 samples.

Results

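The genes described here are 35 targets and regulators of the p53 response and of apoptosis, taken as a fixed list of symbols and read from the deposited table of log2 expression levels. Of the 35, 32 were named by exactly 1 gene symbol on at least 1 probe set and are described, out of 18193 named genes in all, while the levels of Trp53, Bax and Fdxr were not analysed here. Where a gene had several probe sets, the brightest by its mean over the 4 arrays stands for it. The cells were SVEC4-10, a mouse endothelial line transformed with SV40, and each of the 4 arrays carried RNA pooled from 3 biological replicates. The array labelled Mical2 knock-down held cells transduced with a pLENTI6/Block-iT lentiviral vector expressing a short hairpin RNA against Mical2, the array labelled Mical3 knock-down held cells with the same vector expressing a hairpin against Mical3, the vector array held cells with the insert-free vector, and the untreated array held cells with no vector. The transduced cells had been selected with blasticidin, an inhibitor of translation, and no untransduced cells under blasticidin were among the arrays, so vector integration and drug selection cannot be told apart. With 1 array per group there is no replicate spread, so differences are described by their size and not tested.

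A gene was called higher or lower when it differed by at least 1 on the log2 scale, which is 2-fold, and reached 5.41, the median of all deposited values and called the floor here, on at least 1 of the arrays compared. For the hairpin arrays the main comparison required this against the vector and the untreated array in the same direction. As a lower bound of the error, a difference read by 1 probe set varied between paired probe sets of the same gene with an SD of 0.28 for the vector minus the untreated array and of 0.27 to 0.41 for the other pairs of arrays (n = 3242 genes). Neither labelled target was 2-fold lower on its own array: Mical2 read 5.53 on the Mical2-labelled array, 6.08 on the Mical3-labelled array, 5.14 with the empty vector and 5.60 in untreated cells, and Mical3 read 6.83, 7.24, 7.29 and 7.39 in that order. The hairpin arrays are therefore named by their labels, and every direction below is a difference between labelled arrays. Of 12 endothelial markers 7 were below the floor on all 4 arrays, among them Pecam1, Cdh5, Tek and Vwf, and the log2 of the summed linear levels of the 12 was 9.58 to 9.60 on every array. For 4 lymphatic endothelial markers, with Prox1 and Lyve1 below the floor, that sum ran from 11.77 on the Mical2-labelled array to 12.62 on the vector array. Of these Flt4 was called lower on both hairpin arrays against both controls. It read 7.66 and 7.55 on the Mical2- and Mical3-labelled arrays, 8.90 with the empty vector and 9.18 in untreated cells.

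The p53 protein is a transcription factor that damaged or stressed cells stabilise. It binds DNA at tandem copies of a 10-base half-site and switches on genes that halt the cell cycle, repair DNA or start apoptosis, and it switches on Mdm2, whose product sends p53 to degradation. Apoptosis itself is set by the balance between guardian and killer proteins of the Bcl2 family at the mitochondrion, and by death receptors at the cell surface. In SV40-transformed cells the viral large T antigen binds p53 and blocks much of its activity, which is the known setting of this line and was not measured here.

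The p53 half-site was searched, on both strands at once because the pattern is its own reverse complement, in RefSeq promoter windows of the GRCm38.p6 build that run from 250 bases before to 50 bases after each annotated start. Of the 35 listed genes 27 had a window, Trp53 and Bax among them. At least 1 half-site lay in the windows of 10 of these 27 genes (37.0%), against 9.55% of the 27025 genes with a window. The list was chosen to hold known p53 targets, so the difference between these shares is a description and not a test. A pair of half-sites separated by at most 13 bases was found for 1 of the listed genes, Cdkn1a, and for 0.074% of all genes. Of the 10 genes 8 had measured levels, and 3 of the 8 (Cdkn1a, Gadd45a and Polk) were called higher on the vector array. Mdm2, Ccng1, Ei24, Aen and Sesn1 were not. On that array 6 of the 30 listed genes at the floor and 3.26% of all genes were called higher. Trp53inp1, Eda2r and Ddb2, also called higher, were not among the 10 genes. The second probe set of Polk did not show the difference (-0.01). The sequences below show the half-sites in capitals for Cdkn1a, Gadd45a, Polk, Mdm2, Ccng1 and Ei24.
Cdkn1a, chr17:29090881-29090962, plus strand: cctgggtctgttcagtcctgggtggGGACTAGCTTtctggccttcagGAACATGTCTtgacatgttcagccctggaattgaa
Gadd45a, chr6:67037413-67037472, minus strand: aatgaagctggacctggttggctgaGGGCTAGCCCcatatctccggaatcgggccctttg
Polk, chr13:96519384-96519437, minus strand: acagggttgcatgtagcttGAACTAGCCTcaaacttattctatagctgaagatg
Mdm2, chr10:117710910-117710969, minus strand: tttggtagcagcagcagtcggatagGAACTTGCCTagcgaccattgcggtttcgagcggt
Ccng1, chr11:40755437-40755496, minus strand: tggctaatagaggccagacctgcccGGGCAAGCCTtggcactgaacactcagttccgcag
Ei24, chr9:36797310-36797369, minus strand: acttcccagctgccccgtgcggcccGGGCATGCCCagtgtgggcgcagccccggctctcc
The pair in the Cdkn1a window began 73 and 51 bases before an annotated start of that gene, with 12 bases between the copies. The half-site of Gadd45a began 40 bases before its start, that of Polk 231, that of Mdm2 186, that of Ccng1 185 and that of Ei24 10. A match is a description of the letters and not evidence of binding, and the windows leave out introns and distant sites.

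Several p53 targets stood higher on the vector array than on the untreated array. Cdkn1a, Gadd45a, Trp53inp1, Eda2r, Ddb2 and Polk were called higher and Fas lower, 6 and 1 of the 30 listed genes that reached the floor. Among all 11849 genes at the floor, 3.26% were called higher and 2.57% lower. The listed genes were chosen with earlier results of these data known. Their share beside that of all genes is therefore a description and not a test. In a wider list of the same pathways, described below, 1.59% of the genes at the floor were called. By size of difference, Trp53inp1 ranked 13th from the top of those 11849 genes, Eda2r 23rd, Gadd45a 54th and Cdkn1a 139th. The median difference over the 32 listed genes was 0.15, against 0.02 for all genes. In RNA from a whole culture, a change in the share of cells of a type and a change in RNA per cell cannot be told apart.

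**Figure D1:**
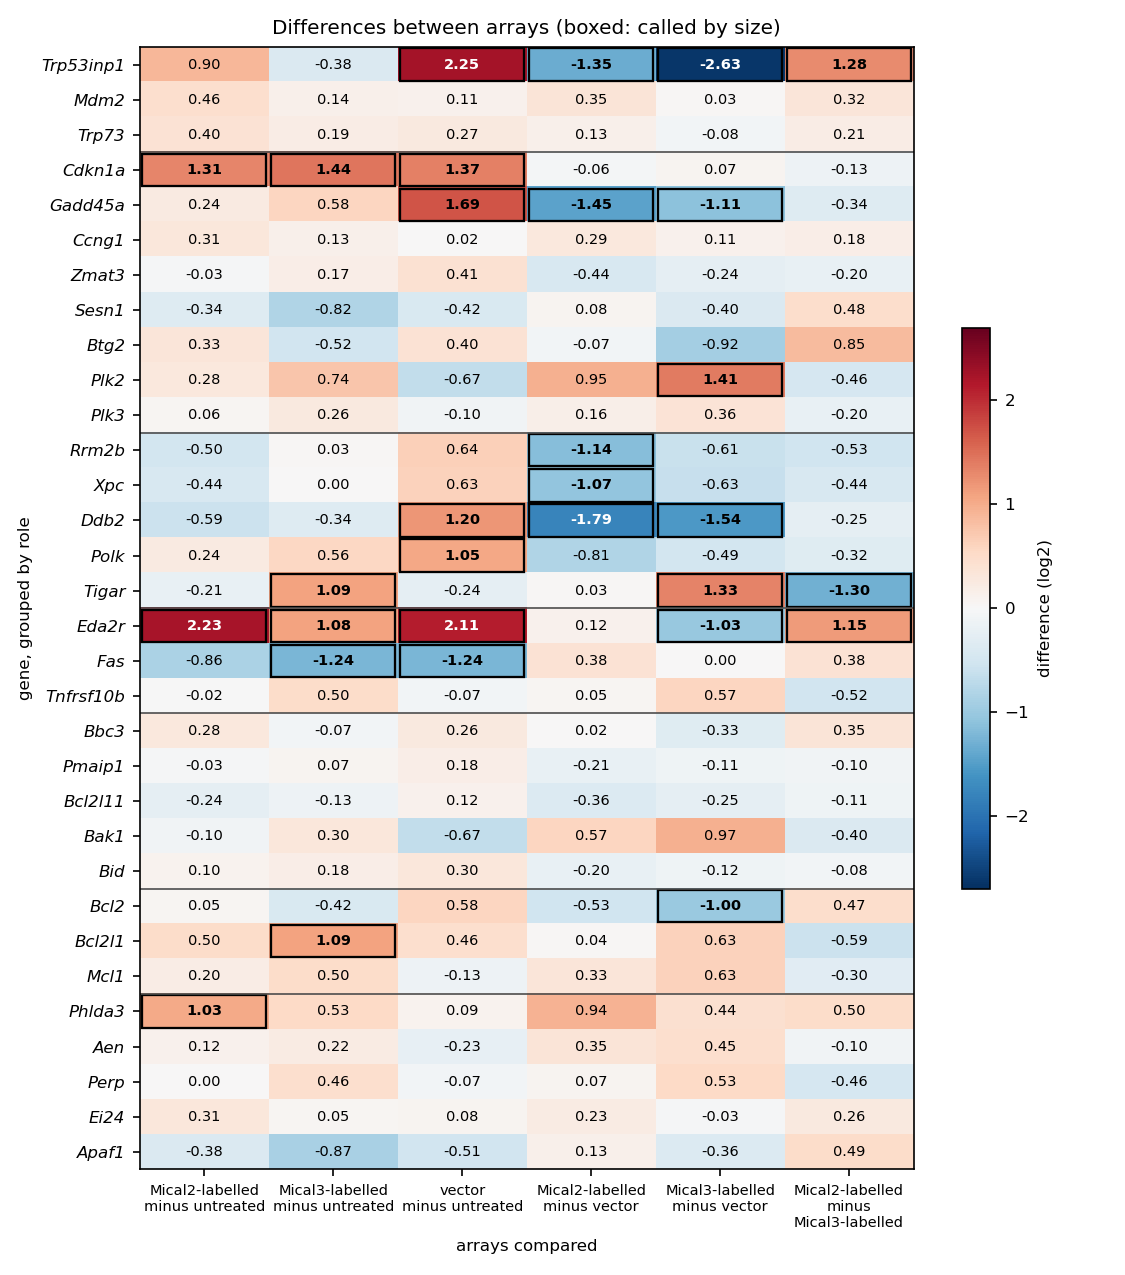
Log2 differences between arrays for the 32 listed genes, 1 row per gene grouped by role and 1 column per pair of arrays, the first array minus the second. Boxed bold values passed the size rule: Cdkn1a and Eda2r are boxed in all 3 columns against the untreated array, and the boxed values against the vector array are mostly negative.

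The growth arrest genes opened with Cdkn1a, which encodes the cyclin-dependent kinase inhibitor p21. It read 11.19 on the Mical2-labelled array, 11.32 on the Mical3-labelled array and 11.25 on the vector array, against 9.88 on the untreated array. The 3 transduced arrays lay within 0.13 of each other and were 2.48, 2.71 and 2.58 times the untreated level. Gadd45a, a damage-induced inhibitor of cell cycle progression, read 9.72 and 10.06 on the Mical2- and Mical3-labelled arrays, 11.17 with the empty vector and 9.48 in untreated cells. Only the vector array stood apart for this gene, 1.69 above the untreated array. Btg2, an antiproliferative partner of mRNA deadenylation, read 10.35, 9.50, 10.42 and 10.02 in the same order of arrays, and no pair differed by 2-fold. Sesn1, a sestrin that restrains growth signalling through mTORC1, read 8.57, 8.09, 8.49 and 8.91. It was highest in untreated cells and was not called. Plk2, a polo-like kinase induced by p53, went the other way on the vector array, at 10.63 there against 11.30 in untreated cells. It read 11.58 on the Mical2-labelled array and 12.04 on the Mical3-labelled array, and the level with the Mical3 label was 1.41 above the vector array. Ccng1, encoding cyclin G1, was among the brightest of the listed genes at 12.55, 12.37, 12.26 and 12.24, with a range of 0.31. Its dimmer probe sets read 10.59, 10.62, 10.02 and 9.98, and 9.83, 9.52, 8.82 and 9.23. Both were higher on each hairpin array than on each control. The largest of these differences was 1.01, for the Mical2-labelled minus the vector array. Zmat3, an RNA-binding zinc finger protein, and Plk3, another polo-like kinase, had ranges of 0.44 and 0.36.

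Among regulators of p53 itself, Trp53inp1 encodes a nuclear stress protein that promotes p53 phosphorylation. It read 9.96 on the Mical2-labelled array, 8.68 on the Mical3-labelled array, 11.31 with the empty vector and 9.06 in untreated cells. The vector level was 4.76 times the untreated level, the largest such ratio of the listed genes, whereas the Mical3-labelled array lay below the untreated array, at -0.38. Mdm2, the ubiquitin ligase that limits p53 and is itself a p53 target, did not follow: it read 10.27, 9.95, 9.92 and 9.81, with the vector only 0.11 above the untreated array. Trp73, a p53 relative, lay at the floor, between 5.23 and 5.63.

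**Figure D2:**
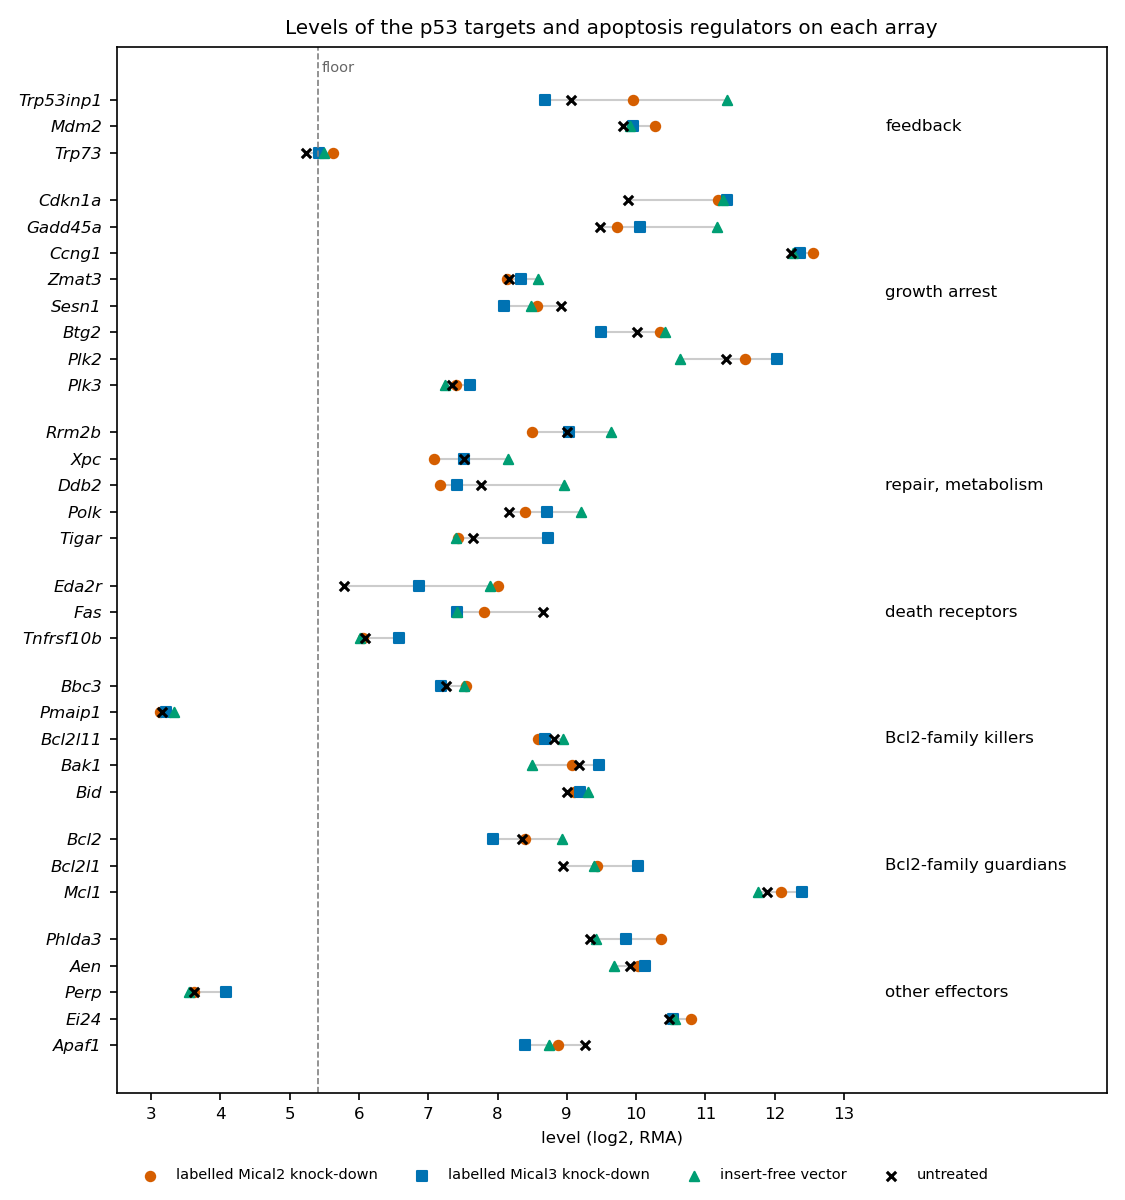
Log2 level of each of the 32 listed genes on the 4 arrays, with 1 symbol per array, genes grouped by role, and the floor of 5.41 as a dashed line. Cdkn1a has its untreated symbol alone at the low end (9.88), Fas has it alone at the high end (8.66), and for Trp53inp1, Gadd45a and Ddb2 the vector symbol stands alone at the high end.

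Of the 5 repair and metabolism genes measured, Ddb2 and Polk were called higher on the vector array. Ddb2, a damage sensor of nucleotide excision repair, read 7.17 on the Mical2-labelled array, 7.42 on the Mical3-labelled array, 8.96 with the empty vector and 7.76 in untreated cells. The vector stood 1.20 above untreated cells, and both hairpin arrays lay slightly below them. Polk, a polymerase that copies across damaged bases, read 8.40, 8.72, 9.21 and 8.16, with the vector 1.05 above the untreated array. Xpc, the recognition factor of the same repair pathway, read 7.08, 7.52, 8.15 and 7.52, and Rrm2b, the p53-inducible subunit of ribonucleotide reductase, read 8.5, 9.03, 9.64 and 9.0. Both were highest on the vector array, by 0.63 and 0.64 over untreated cells, and neither passed the size rule there. Tigar, a phosphatase that lowers glycolytic flux, had another pattern: it read 8.73 on the Mical3-labelled array, against 7.40 with the empty vector and 7.64 in untreated cells, and 7.43 on the Mical2-labelled array.

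The death receptor genes diverged. Eda2r, the receptor of the ectodysplasin form EDA-A2, read 8.01 on the Mical2-labelled array, 6.86 on the Mical3-labelled array and 7.89 on the vector array, against 5.78 on the untreated array, close to the floor. Every transduced array was above the untreated one, by 2.23, 1.08 and 2.11. Fas, the receptor of Fas ligand, ran the opposite way at 7.80, 7.42 and 7.42 on those 3 arrays, against 8.66 in untreated cells. The arrays labelled Mical3 and vector passed the size rule, both at -1.24, and the Mical2-labelled array missed it at -0.86. Tnfrsf10b, the receptor of TRAIL in the mouse, read 6.06, 6.58, 6.01 and 6.08.

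Of the 5 killer genes measured, 4 reached the floor and 0 were called on the vector array, where 5.83% of all genes were called in either direction, so this count is near the background. Bbc3, the BH3-only protein PUMA and a p53 target, read 7.54, 7.19, 7.52 and 7.26 on the Mical2- and Mical3-labelled arrays, the vector array and the untreated array. Pmaip1, the BH3-only protein NOXA, stayed between 3.12 and 3.33, below the floor throughout. Bak1, a pore-forming killer, read 9.07, 9.47, 8.5 and 9.17 and was lowest on the vector array, at a difference of -0.67 from untreated cells. Bid and Bcl2l11, which encodes BIM, had ranges of 0.30 and 0.36. A dimmer probe set of Bcl2l11 stood 0.46 and 0.72 above the untreated array on the Mical2- and Mical3-labelled arrays, under the size rule. Of the guardians, Bcl2 read 8.40, 7.93, 8.93 and 8.35, Bcl2l1, encoding BCL-XL, read 9.44, 10.03, 9.40 and 8.94, and Mcl1 read 12.09, 12.39, 11.76 and 11.89. By these probe sets Bcl2 was lowest and Bcl2l1 and Mcl1 were highest on the Mical3-labelled array, but 4 of the 6 probe sets of Mcl1 were highest on the Mical2-labelled array. On the Mical3-labelled array Bcl2, at -1.0, passed the size rule against the vector array and Bcl2l1, at 1.09, against the untreated array. The other probe sets of Bcl2 gave -0.27 to -0.68 in that comparison with the vector array. Those of Bcl2l1, all below the floor, gave -0.16 to 0.15 against the untreated array. A dimmer probe set of Mcl1 read 10.16 on the Mical3-labelled array against 8.85 with the empty vector, a difference of 1.31 that passed the size rule.

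Among the other effectors, Phlda3, a p53-induced repressor of AKT, read 10.36 on the Mical2-labelled array, 9.86 on the Mical3-labelled array, 9.42 with the empty vector and 9.33 in untreated cells. The Mical2-labelled array was highest, 0.94 above the vector and 1.03 above the untreated array, and so missed the rule against the vector. Apaf1, the scaffold of the apoptosome, read 8.88, 8.39, 8.75 and 9.26 in the same order and was highest in untreated cells. Aen, a p53-induced nuclease, and Ei24, a p53-induced membrane protein of the endoplasmic reticulum, had ranges of 0.45 and 0.31. Dimmer probe sets of Aen differed by up to 0.86, for the Mical3-labelled minus the vector array, under the size rule. Perp, a p53 target of epithelial junctions, lay below the floor on all 4 arrays, at 3.55 to 4.08.

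Because Cdkn1a and Eda2r stood high on every transduced array, the 3 arrays were also compared together with the untreated array, a comparison chosen after the values were seen. Among 12166 genes at the floor on some array, 7 (0.0575%) were at least 2-fold higher on each of the 3 transduced arrays and 23 (0.189%) at least 2-fold lower. Cdkn1a and Eda2r were 2 of those 7, and none of the listed genes was among the 23. The other 5 were Capg, Dglucy, Hspb2, Ifi27l2a and Sqor. Capg, an actin-capping protein, read 9.98, 10.17 and 11.06 on the Mical2- and Mical3-labelled arrays and the vector array, against 8.32 in untreated cells. The 3 differences share the untreated array, so a low reading of a gene on that array alone would give the same pattern, and this was not tested. For Cdkn1a a second probe set read 11.05, 11.19 and 11.00 on the transduced arrays, against 9.61 on the untreated array, while Eda2r was read by 1 probe set. With 16 added on the linear scale, which shrinks the differences of dim genes, Cdkn1a was the only listed gene called.

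**Figure D3:**
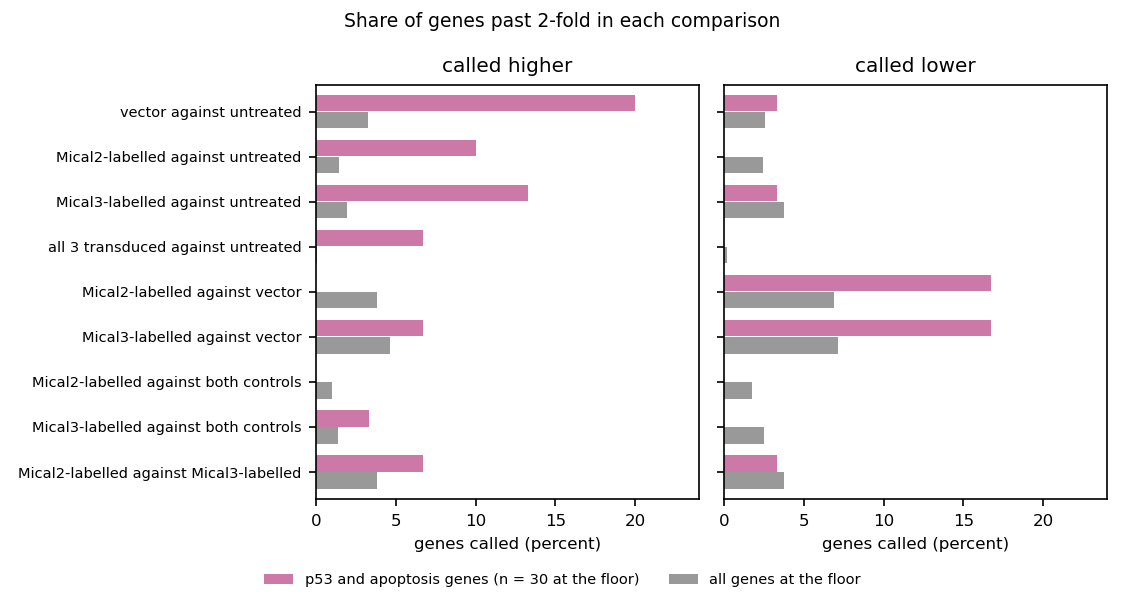
Percent of genes at the floor that were called higher (left) and lower (right) in each comparison, for the 30 listed genes (coloured bars) and for all genes (grey bars), with both axes from 0. The coloured bar is longest for the vector set against the untreated array (6 of the 30 listed genes, beside 3.26% of all genes), and comparisons that share an array are not independent.

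The question of the study was what the absence of Mical2 changes, and for the Mical2-labelled array none of the 30 listed genes at the floor was called against both controls. The whole table had 0.977% of 12072 genes called higher and 1.75% lower in that comparison, so a count of 0 of 30 is near the background. The median difference of the 32 listed genes was 0.045 from empty-vector cells and 0.11 from untreated cells, against 0.01 from each for all genes. Each control on its own gave calls, in opposite directions. Against the untreated array Cdkn1a, Eda2r and Phlda3 were called higher and none lower, where all genes had 1.44% higher and 2.44% lower. Against the vector array Trp53inp1, Gadd45a, Rrm2b, Xpc and Ddb2 were called lower and none higher, with differences of -1.07 to -1.79, where all genes had 3.82% higher and 6.91% lower. Those 5 genes were all highest on the vector array.

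On the Mical3-labelled array, Tigar was the only listed gene called against both controls, as higher, where 1.38% of all genes were called higher and 2.49% lower. Its level was 2.51 times that of the vector array and 2.13 times that of the untreated array. The other probe sets of Tigar read 7.71 and 8.48 on that array, against 6.95 and 7.74 with the empty vector and 7.0 and 7.58 in untreated cells. They were highest on the same array and differed by 0.71 to 0.90, under the size rule. The median of the 32 listed genes was -0.095 from empty-vector cells and 0.175 from untreated cells, and for all genes it was 0.00 and 0.02. With the untreated array alone, Cdkn1a, Eda2r, Tigar and Bcl2l1 were called higher and Fas lower, against 1.95% and 3.72% of all genes. With the vector array alone, Plk2 and Tigar were called higher and Trp53inp1, Gadd45a, Eda2r, Ddb2 and Bcl2 lower, against 4.64% and 7.13% of all genes.

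Set directly against the Mical3-labelled array, the Mical2-labelled array had Trp53inp1 and Eda2r called higher, by 1.28 and 1.15, and Tigar lower, at -1.30. The second probe set of Trp53inp1, below the floor, differed by 0.08. In this comparison, which uses neither control, 3.81% of all genes were called higher and 3.72% lower. All 5 repair and metabolism genes measured were lower on the Mical2-labelled array than on the Mical3-labelled array, with a median of -0.44. Over all genes, 8884 of 18193 were lower, with a median of 0.00. Tigar alone of the 5 passed the size rule. The rest differed by -0.25 to -0.53, beside an SD of 0.33 between probe sets for this pair of arrays, so the shared direction is a description only.

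Of the 32 listed genes 21 were read by more than 1 probe set, with 75 probe sets in all. Cdkn1a and Ddb2 had the same call from both of their probe sets, with differences of the vector from the untreated array of 1.37 and 1.39 for Cdkn1a and of 1.20 and 1.14 for Ddb2. The second probe set of Trp53inp1 lay below the floor, at 4.90, 4.82, 5.32 and 4.99 on the Mical2- and Mical3-labelled arrays, the vector array and the untreated array, and differed by 0.33 between the last pair. The second probe set of Polk, at 5.54 with the empty vector and 5.55 in untreated cells, did not show the higher vector level at all. Gadd45a, Eda2r and Fas had 1 probe set each, so their calls could not be checked within the array.

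**Figure D4:**
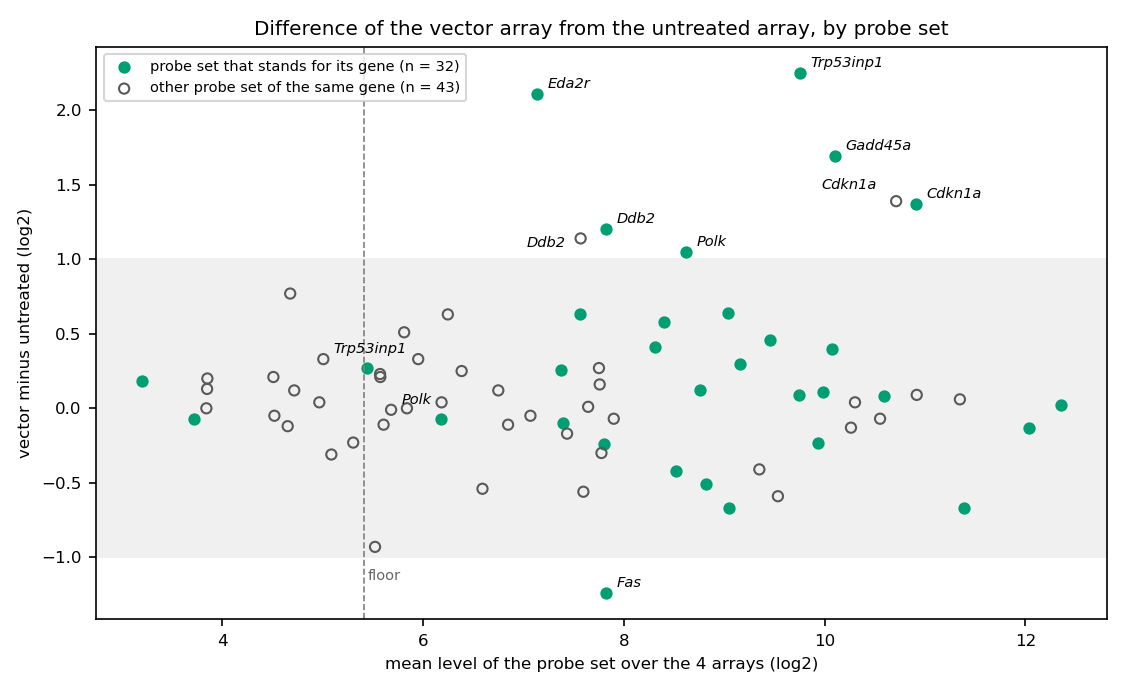
Difference of the vector from the untreated array for each of the 75 probe sets of the listed genes, plotted against the mean log2 level of the probe set over the 4 arrays. Filled points stand for their gene, open points are further probe sets, the grey band spans differences under 1, and the dashed line is the floor. The open point of Cdkn1a lies beside its filled point (1.39 and 1.37), while the open points of Trp53inp1 and Polk lie inside the band.

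Outside the listed genes, 69 further genes of the p53 and apoptosis pathways were read from a list made by textbook role. On the vector array 1 of the 63 at the floor was called, as higher: Sesn2, a stress-induced sestrin, read 9.49 there against 8.39 in untreated cells, and its second probe set read 9.45 against 7.93. The share called was 1.59%, against 5.83% of all genes, and the median difference of the 69 genes was 0.06. On the Mical2-labelled array, 2 of 65 (3.08%) were called against both controls, near the 2.73% of all genes. Bok, a Bax-like killer, was higher at 9.86, against 8.18 with the empty vector and 8.79 in untreated cells. Endog, a mitochondrial nuclease released in apoptosis, was lower at 6.28, against 7.88 and 7.77, and its second probe set read 4.38, against 8.28 and 8.16. On the Mical3-labelled array, 4 of 64 (6.25%) were called lower and none higher against both controls, beside 2.49% lower and 1.38% higher among all genes. Bnip3, a hypoxia-induced mitochondrial protein that promotes mitophagy, read 5.76 there, against 10.13 with the empty vector and 9.73 in untreated cells. Cdkn2a, which encodes p16 and the MDM2 inhibitor p19ARF, read 11.97, against 13.22 and 13.02. Ripk3, a kinase of necroptosis, read 8.77, against 10.09 and 9.93, and Sesn3 read 7.34, against 8.65 and 8.66. The second probe set of Sesn3 read 7.16, against 7.59 and 7.83, which was lower but under the size rule. Between the hairpin arrays, Sesn3 and Bnip3 were called higher and Gadd45g and Endog lower on the Mical2-labelled array. The second probe set of Sesn3 read 7.94 there and 7.16 on the Mical3-labelled array, under the size rule.

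Cell cycle genes that p21 restrains through CDK2 and the RB and DREAM complexes were read beside Cdkn1a. On the vector array 1 of 19 (5.26%) was called, near the 5.83% of all genes, and it was lower: Plk1, a mitotic kinase, read 8.73 against 9.86 in untreated cells. The median of the 19 genes was -0.35, with 14 of them below untreated cells, against a median of 0.02 for all genes. On the Mical2- and Mical3-labelled arrays, where Cdkn1a was as high as on the vector array, the medians from the untreated array were -0.09 and 0.03, and no gene of the 19 was called against the untreated array. Mki67, the proliferation marker, read 10.43, 11.24, 10.83 and 11.28 on the Mical2- and Mical3-labelled arrays, the vector array and the untreated array.

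Markers of other cell types moved with the same arrays. Of 8 fibroblast markers, 6 were called lower on the vector array than on the untreated array, with a median difference of -2.095, and the log2 of their summed linear levels was 15.25 on the Mical2-labelled array, 13.50 on the Mical3-labelled array, 13.02 with the empty vector and 15.58 in untreated cells. Lum and Thy1 of that list were below the floor on all arrays. The sum of 5 smooth muscle markers, with Myh11 and Cnn1 below the floor, was 14.03, 15.07, 11.72 and 13.82, and that of 4 epithelial markers, with Cdh1 below it, was 9.14, 9.31, 7.78 and 9.01. The vector array was lowest in all 3 sums, which weigh bright genes most. The median level of the fibroblast markers was instead lowest on the Mical3-labelled array, at 6.63, against 9.21 on the vector array. On the Mical3-labelled array Dcn read 12.79 and Col1a2 6.19, against 10.52 and 11.64 on the vector array. Of the smooth muscle markers, Des, Cnn1 and Myh11 differed by only 0.16, 0.02 and -0.12 between the vector and the untreated array. The sum of 6 leukocyte markers was 8.19, 8.34, 8.84 and 8.01, with Ptprc, Adgre1 and Itgam below the floor. Of that list Cd68 was called higher on the vector array, at 8.0 against 5.93 in untreated cells, while Csf1r differed by 0.10 and Cd3e by -0.03. The part of these shifts in the levels of the listed genes was not tested. On the Mical2-labelled array, where the fibroblast sum was close to that of untreated cells, the difference from the untreated array was 1.31 for Cdkn1a, 2.23 for Eda2r and -0.86 for Fas, beside 1.37, 2.11 and -1.24 on the vector array. It was 0.24 for Gadd45a, -0.59 for Ddb2, 0.24 for Polk and 0.90 for Trp53inp1, beside 1.69, 1.20, 1.05 and 2.25 on the vector array. On the Mical3-labelled array, with a fibroblast sum of 13.50, it was 1.44 for Cdkn1a, 1.08 for Eda2r and -1.24 for Fas. For Gadd45a, Ddb2, Polk and Trp53inp1 it was 0.58, -0.34, 0.56 and -0.38 there. Whether the marker shifts bear on any of these differences was not tested.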

How the data were processed

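Total RNA from SVEC4-10 cells was measured on 4 single-channel 3' expression arrays with 1 array per group, each a pool of 3 biological replicates per the labels. The deposited values are log2 levels per probe set, made by the authors with RMA, which corrects background, quantile-normalizes and summarises probes, per the submitters' processing notes. The sources used here do not give its version or settings. RMA compresses differences of dim probe sets. Array medians ran from 5.40 to 5.44, and array correlations across probe sets from 0.978 to 0.990. The number of arrays limits the precision.

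Of 45101 probe sets, 34945 had 1 symbol in the platform annotation and 932 had several. Symbols were updated through Entrez identifiers to the RefSeq table of GRCm38.p6, which matched 34741. The probe set with the highest mean stood for its gene. The size rule (2-fold, floor 5.41) was applied in 4 planned comparisons. A check of its code on simulated data used changes well past 2-fold in bright genes, against both controls. It therefore does not show how often the rule errs near 2-fold, in dim genes or against a single control. The members, lists and rules were chosen with earlier results of these data known. Every listed gene measured is named. Of the wider lists, genes called in a planned comparison are named, and Mki67, Capg and the markers were named after their values were seen. Gadd45b, Cdkn1b, Cdkn1c and Trp53inp2, which were not called, are named as relatives of listed genes. Alternatives covered the control, floor, fold, probe set choice, probe set suffixes (_s_at, _x_at or _a_at left out), normalization and 16 added on the linear scale. Python 3.11.15, pandas 2.3.3, numpy 2.4.6, statsmodels 0.14.6 and matplotlib 3.10.9 were used.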

Additional observations from a re-analysis of the deposited data

How the results depend on the processing

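Counts of called genes rested mainly on the control used and on the fold required. For the Mical2-labelled array the 0 listed genes called against both controls became 5 with the vector as sole control, 3 with the untreated array, 2 with their mean, 2 at 1.5-fold and 1 (Phlda3) after a loess fit along the mean level. For the Mical3-labelled array the 1 gene became 7, 5 and 3 under those controls, 3 at 1.5-fold, 0 at 3-fold and 0 with the mean of all probe sets. On the vector array the 7 genes became 11 at 1.5-fold and 3 at 3-fold (Trp53inp1, Gadd45a and Eda2r). At 2-fold the call of Polk was lost with the mean of all probe sets (0.52) and after the loess fit (0.99). That of Eda2r was lost with the floor at the 75th percentile. Ddb2 had no probe set left once those with the suffixes _s_at, _x_at or _a_at were left out. Between the hairpin arrays the 3 became 5 at 1.5-fold and 0 at 3-fold. For all 3 transduced arrays the 2 became 0 at 3-fold and 1 (Cdkn1a) with 16 added, and Cdkn1a and Eda2r were called under the 7 other alternatives run, with Fas as well at 1.5-fold. A loess fit was not run for that comparison. The second probe set of Polk gave -0.01 in place of 1.05, and the cause was not tested.

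In the wider list, the Mical2-labelled array had 2 genes called. The count was 6 with the vector as sole control and 1 with the floor at the 75th percentile. It was 4 at 1.5-fold, 0 at 3-fold and 1 without probe sets with the suffixes _s_at, _x_at or _a_at. The array labelled Mical3 had 4, and 8 with the vector control and 1 at 3-fold. The vector array had 1, and 8 at 1.5-fold and 0 at 3-fold. Between the hairpin arrays the 4 became 11 at 1.5-fold, 2 at 3-fold and 2 with 16 added. Of the cell cycle genes, 1 was called on the vector array, 5 at 1.5-fold, 0 at 3-fold and 2 with the most variable probe set. Changes of fold change counts by construction, and fewer probe sets remain without those with these suffixes. Other causes were not tested. No paired analysis was possible because each group had 1 array.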

Other observations

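Relatives of the listed genes had their own patterns, given here as values. In the Gadd45 family, Gadd45a was highest on the vector array (11.17, against 9.48 in untreated cells), Gadd45b, a relative induced by inflammatory signals, read 11.70, 11.46, 11.61 and 11.89 on the Mical2- and Mical3-labelled arrays, the vector array and the untreated array, and Gadd45g was highest on the Mical3-labelled array (11.15, against 10.10 with the empty vector and 10.34 in untreated cells). In the sestrin family, Sesn2 was called higher on the vector array. Sesn3 was called lower on the Mical3-labelled array by its brightest probe set and not by the second. Sesn1 had a range of 0.82 with no call by its brightest probe set. Of the CDK inhibitors related to Cdkn1a, Cdkn1b read 10.40, 10.62, 10.94 and 10.52 in the same order, with a range of 0.54, and Cdkn1c was below the floor on all 4 arrays. Trp53inp2, the relative of Trp53inp1 with a role in autophagy, read 8.81, 9.0, 9.45 and 9.38, and its vector level was close to that of untreated cells.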
